A study of Mus musculus with 3 samples.

Results

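*Otof* (otoferlin), the Munc13 genes *Unc13a*, *Unc13b* and *Unc13c*, the CAPS genes *Cadps* and *Cadps2*, and the Doc2 genes *Doc2a* and *Doc2b* were followed across neurons of the adult mouse basolateral amygdala (BLA). All 8 genes were found among the 32285 genes of the matrices. The group was chosen by the known role of its members in vesicle release, with earlier results of these data known, and was built around *Otof*. The study had itself selected *Otof* on its level in these libraries as a marker of glutamatergic clusters, together with *Cdh13* and *Grik1*. The levels of *Otof* across glutamatergic nuclei are therefore given as a description, with no test.

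Neurons release transmitter when a vesicle docked at the active zone fuses with the membrane through the SNARE complex, which pairs syntaxin and SNAP-25 on the membrane with synaptobrevin on the vesicle. Munc13 proteins open syntaxin and make vesicles ready to fuse, and CAPS proteins do related work on dense core vesicles, which carry peptides. Otoferlin, of the ferlin family, is best known as the calcium sensor of release in the inner hair cells of the cochlea, and Doc2 proteins bind calcium with high affinity through paired C2 domains.

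Single-nuclei RNA sequencing (snRNAseq) was performed on nuclei from BLA tissue of male C57BL/6NRj mice at P56 (56 days of age), for which the labels name no treatment or transgene, each dataset pooling 4 brains of 1 litter. Of the 3 libraries, libraries 2 and 3 are used here, with 3792 and 4588 barcodes and 24354374 and 33049068 unique molecular identifiers (UMIs, each standing for 1 captured RNA molecule). The 2 libraries are the replicates, and since the labels do not say whether they come from separate pools of tissue, p-values may measure technical spread alone. Glutamatergic nuclei had at least 2 UMIs of *Slc17a7* and *Slc17a6* and 0 of *Gad1* and *Gad2*, GABAergic nuclei the reverse, and in both classes the astrocyte transporters *Slc1a2* and *Slc1a3* made up less than 0.1% of UMIs. This gave 484 and 210 glutamatergic and 388 and 677 GABAergic nuclei in libraries 2 and 3, 694 and 1065 of 8380 barcodes in all. Glutamatergic nuclei were divided at 4 UMIs of *Cdh13*, a cadherin, and 2 UMIs of *Grik1*, a kainate receptor subunit, into nuclei with neither (216 and 73), *Cdh13* only (162 and 79), *Grik1* only (25 and 16) and both (81 and 42).

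Library 1 stood apart and is left out of the results below. It held 819 barcodes, 42 of them glutamatergic and 7 GABAergic, and *Otof* lay between 180 and 371 CPM (the UMIs of a gene relative to all UMIs of the group, scaled to the same total in every library) in each of its neuronal groups and at 252 CPM in oligodendrocyte-like nuclei. Libraries 2 and 3 shared 7 barcode sequences, none of them a neuron by these rules. The marker lists fitted the classes: *Gad1* and *Gad2* were at 0 by construction in glutamatergic nuclei, *Slc32a1*, the vesicular GABA transporter, reached 19.0 and 12.4 CPM in GABAergic against 0.238 and 0.630 CPM in glutamatergic nuclei, and *Tbr1*, a transcription factor of pallial projection neurons, 6.91 and 3.47 CPM in glutamatergic against 0.840 and 0.168 CPM in GABAergic nuclei. Glutamatergic nuclei were deeper, with medians of 15526 and 13077 UMIs against 7646 and 7246 in GABAergic nuclei. CPM of the summed UMIs of a group are used for levels, with exact Poisson 95% intervals that cover counting error only. Levels of different genes are not compared.

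**Figure D1:**
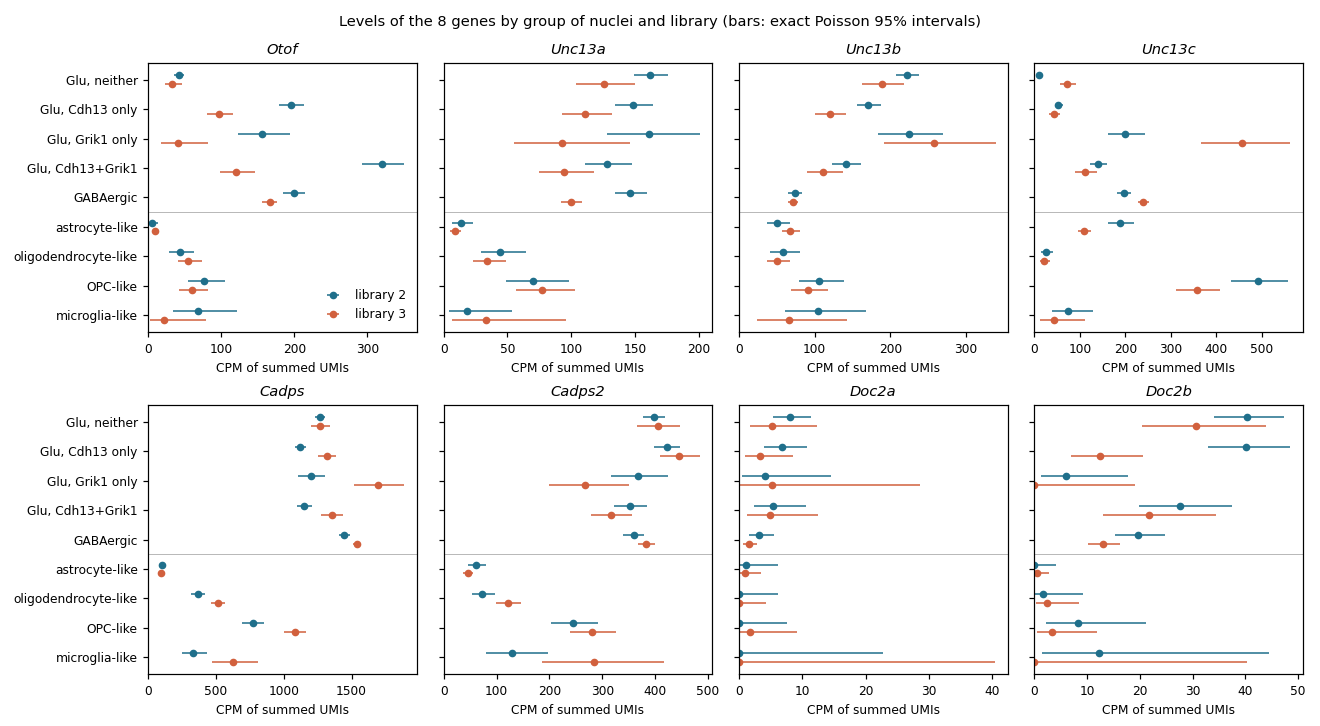
CPM of the 8 genes (horizontal axes, linear, each with its own range) in the 4 groups of glutamatergic nuclei (Glu), GABAergic nuclei and 4 non-neuronal groups (OPC, oligodendrocyte precursor), with library 2 in blue, library 3 in orange and exact Poisson 95% intervals as bars. *Otof* is low in nuclei with neither marker (41.9 and 32.7 CPM) and high in GABAergic nuclei (199.1 and 166 CPM), while *Unc13b* runs the other way.

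The first comparison asked how the release genes differ between glutamatergic and GABAergic neurons. *Unc13b*, *Doc2a* and *Doc2b* were higher in glutamatergic nuclei, *Unc13c* and *Otof* were higher in GABAergic nuclei, and *Unc13a*, *Cadps* and *Cadps2* did not pass the test. That is 5 of 8 members past the threshold (edgeR quasi-likelihood test on sums per class and library, Benjamini-Hochberg adjusted p under 0.05, n = 2 libraries), 3 higher and 2 lower, where 16.4% of the 12864 genes tested passed. The members include *Otof* and were chosen with earlier results of these data known, so this count is a description and not a test of the group. With the library as a block, the same number of members passed, and the count over all genes rose from 2106 to 3210.

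*Otof* (chr5:30367062-30461932, GRCm38, minus strand) was measured at 199.1 CPM (184.8 to 214) in library 2 and 166 CPM (155.9 to 177) in library 3 in GABAergic nuclei. In glutamatergic nuclei it was at 147 CPM (139 to 155) and 80.4 CPM (70.8 to 90.9), so that the classes did not overlap, although the glutamatergic libraries differed from each other by more than the GABAergic ones. The log2 difference, glutamatergic minus GABAergic, was -0.66 ± 0.20 (SE, adjusted p = 0.0427, edgeR). This call was the least stable of the 5, since it held under 3 of 9 alternatives, whose adjusted p ran from 0.00116 to 0.9995, with 0.0588 under another scaling in edgeR and 0.0921 in DESeq2. The direction was kept in all 9.

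Within glutamatergic nuclei *Otof* spread more widely than between the classes. In nuclei with neither marker it was at 41.9 and 32.7 CPM in libraries 2 and 3, in *Cdh13* only nuclei at 195.7 and 97.1, in *Grik1* only nuclei at 155 and 41.1, and in nuclei with both at 319.9 and 119.9. Levels with *Cdh13* were 4.67 and 2.97 times those with neither, and levels with both markers 7.64 and 3.67 times, while the *Grik1* only groups of the 2 libraries lay far apart. Library 2 was higher in all 4 groups. Ordered by the mean of the libraries, the groups ran from both markers over GABAergic, *Cdh13* only and *Grik1* only down to neither, and each of the first 4 overlapped its neighbour in range.

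By CPM, the lowest neuronal values of *Otof* were no higher than those in cells without transmitter genes. Oligodendrocyte-like nuclei had 42.9 CPM (28.0 to 62.9) and 54.8 CPM (40.2 to 72.8), with *Otof* in 5.70% and 5.33% of nuclei at median depths of 2021 and 2048 UMIs, and astrocyte-like nuclei had 5.50 and 9.25 CPM. The intervals of nuclei with neither marker (35.6 to 49.0 and 22.2 to 46.4 CPM) overlapped those of oligodendrocyte-like nuclei and lay above those of astrocyte-like nuclei. The summed level of the neuron markers *Rbfox3*, *Snap25* and *Syt1* was 5732 and 5807 CPM in glutamatergic nuclei. It was 1082 and 1576 CPM in oligodendrocyte-like and 422 and 316 CPM in astrocyte-like nuclei, and its part in their *Otof* levels was not tested. At a common depth of 1500 UMIs the share of nuclei calculated to show *Otof* was 23.5% and 20.9% of GABAergic nuclei, 20.9% and 10.2% of all glutamatergic nuclei, 9.44% and 5.01% of nuclei with neither marker and 4.30% and 4.21% of oligodendrocyte-like nuclei. At full depth the order of the classes for *Otof* changed between the libraries, with 47.4% and 47.9% of GABAergic and 58.3% and 43.3% of the deeper glutamatergic nuclei.

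**Figure D2:**
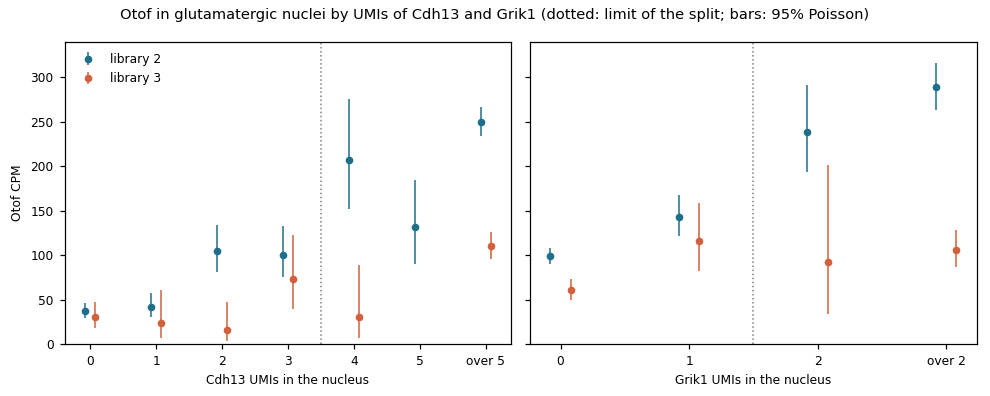
*Otof* CPM (vertical axis, linear from 0) in glutamatergic nuclei by the number of UMIs of *Cdh13* (left) or *Grik1* (right) in the nucleus, for libraries 2 (blue) and 3 (orange), with exact Poisson 95% intervals and a dotted line at the limit of each division. In library 2 *Otof* was at 36.7 CPM in nuclei with 0 UMIs of *Cdh13* and 249.6 CPM in those with over 5, and in library 3 at 30.1 and 110.3 CPM.

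Just below the *Cdh13* limit, at 3 UMIs, *Otof* was at 101 CPM (29 nuclei) in library 2 and 73.0 CPM (11 nuclei) in library 3. Just inside it, at 4 UMIs, it was at 207 CPM (14 nuclei) and 30.3 CPM (12 nuclei). Around the *Grik1* limit the values were 143 and 116 CPM at 1 UMI and 239 and 92.6 CPM at 2 UMIs. At the *Cdh13* limit the intervals did not overlap in library 2 (74.9 to 132 against 152 to 276 CPM) and did in library 3 (39.9 to 123 against 6.24 to 88.5 CPM), where nuclei just inside held 3 UMIs of *Otof* in all.

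Munc13 genes behaved differently from each other. *Unc13a* (chr8:71624417-71671757, minus strand), the main Munc13 gene of forebrain synapses, had nearly the same level in both classes, 152 and 110.0 CPM in glutamatergic and 146 and 100.3 CPM in GABAergic nuclei. Its log2 difference was 0.13 ± 0.18 (adjusted p = 0.743), and it was low in oligodendrocyte-like (44.6 and 33.8 CPM) and astrocyte-like nuclei (13.2 and 8.76 CPM). *Unc13b* (chr4:43058953-43264871, plus strand) was at 191 and 147 CPM in glutamatergic and 73.7 and 71.4 CPM in GABAergic nuclei. Both glutamatergic values lay above both GABAergic values, with a log2 difference of 1.24 ± 0.17 (adjusted p = 0.000138), the firmest of the higher calls. At least 1 UMI was found in 79.1% and 69.5% of glutamatergic and 38.7% and 35.6% of GABAergic nuclei. The GABAergic level lay between those of astrocyte-like (50.6 and 67.7 CPM) and oligodendrocyte precursor-like nuclei (106 and 90.6 CPM).

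*Unc13c* (chr9:73479422-73968966, minus strand), best known from granule cells of the cerebellum, went the other way. It was at 57.8 CPM in library 2 and 94.5 CPM in library 3 in glutamatergic nuclei, against 197 and 239.8 CPM in GABAergic nuclei. The log2 difference was -1.50 ± 0.26 (adjusted p = 0.00122). The summed level of the oligodendrocyte precursor markers *Pdgfra*, *Vcan*, *Lhfpl3* and *Cspg4*, all 4 detected, was 606 and 626 CPM in GABAergic and 294 and 485 CPM in glutamatergic nuclei, and its part in the result was not tested. Both *Unc13b* and *Unc13c* held their calls under 8 of 9 alternatives, the exception being library 1 added. *Unc13c* was not confined to neurons: oligodendrocyte precursor-like nuclei had 492 and 357 CPM, with at least 1 UMI in 60.0% and 60.7% of nuclei, and astrocyte-like nuclei 188 and 110.0 CPM, while oligodendrocyte-like nuclei had 24.8 and 21.0 CPM. In vascular-like nuclei it reached 426 CPM (248 to 682, 18 nuclei) and 1282 CPM (955 to 1686, 21 nuclei).

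The 250 bases before the RefSeq start of the 3 Munc13 genes are shown because these paralogs differed in class pattern (RefSeq, GRCm38.p6, read on the strand of the gene). They lie at chr8:71671758-71672007 for *Unc13a*, chr4:43058703-43058952 for *Unc13b* and chr9:73969038-73969287 for *Unc13c*. Capitals mark matches to the GC box letters GGGCGG on either strand.
Unc13a: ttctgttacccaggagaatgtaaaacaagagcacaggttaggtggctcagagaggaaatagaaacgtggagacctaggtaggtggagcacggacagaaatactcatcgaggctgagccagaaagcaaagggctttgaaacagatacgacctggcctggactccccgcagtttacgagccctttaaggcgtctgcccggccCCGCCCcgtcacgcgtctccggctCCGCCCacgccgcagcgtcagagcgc
Unc13b: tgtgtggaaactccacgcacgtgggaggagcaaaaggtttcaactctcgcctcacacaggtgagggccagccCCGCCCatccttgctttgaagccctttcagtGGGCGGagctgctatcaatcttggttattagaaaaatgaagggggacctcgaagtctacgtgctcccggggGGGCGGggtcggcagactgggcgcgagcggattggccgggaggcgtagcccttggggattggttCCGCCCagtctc
Unc13c: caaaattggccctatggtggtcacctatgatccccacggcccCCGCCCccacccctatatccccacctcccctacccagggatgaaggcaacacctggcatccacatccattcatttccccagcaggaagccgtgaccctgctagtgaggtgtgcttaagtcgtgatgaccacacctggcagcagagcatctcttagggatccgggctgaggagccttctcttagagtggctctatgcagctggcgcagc
There were 2, 4 and 1 matches, in the order printed, and 32.7% of 32851 promoters of the same length held at least 1. The windows held 18, 16 and 6 CpG dinucleotides, against a median of 6 over all promoters. Of the 8 genes, 5 had a promoter sequence in this table.

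Neither CAPS gene passed between the classes. *Cadps* (chr14:12372563-12823079, minus strand) was found in 97.6% to 99.3% of the nuclei of both classes. Its level was 1196 and 1336 CPM in glutamatergic and 1447 and 1538 CPM in GABAergic nuclei, and the log2 difference of -0.20 ± 0.28 did not pass (adjusted p = 0.754). *Cadps2* (chr6:23262773-23839421, minus strand) was at 395 and 389 CPM in glutamatergic and 359 and 383 CPM in GABAergic nuclei, a log2 difference of 0.11 ± 0.21 (adjusted p = 0.824). The shares of nuclei with *Cadps2* differed all the same, with 87.2% and 83.3% of glutamatergic and 46.6% and 49.6% of GABAergic nuclei, and at 1500 UMIs 39.2% and 39.4% against 24.6% and 25.2%. A similar mean level thus came from a smaller share of GABAergic nuclei. Outside neurons, *Cadps* was by the mean highest in oligodendrocyte precursor-like nuclei (769.6 and 1080.1 CPM) and lowest in astrocyte-like nuclei (103 and 94.5 CPM). The summed level of the neuron markers *Rbfox3*, *Snap25* and *Syt1* was 1609 and 3377 CPM in oligodendrocyte precursor-like nuclei. Its part in the *Cadps* level was not tested.

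Few UMIs were counted for the Doc2 genes. *Doc2a* (chr7:126847416-126852705, plus strand) was at 6.91 and 4.41 CPM in glutamatergic nuclei, from 58 and 14 UMIs, and at 3.08 and 1.51 CPM in GABAergic nuclei, from 11 and 9 UMIs. *Doc2b* (chr11:75768966-75796049, minus strand) was at 36.0 and 19.5 CPM against 19.6 and 12.9 CPM. For *Doc2a* the log2 difference was 1.44 ± 0.44 (adjusted p = 0.0394), and for *Doc2b* 0.86 ± 0.25 (adjusted p = 0.0328). For *Doc2b* the lower glutamatergic value lay just below the higher GABAergic one, so the classes overlapped. These calls held under 5 and 6 of 9 alternatives, and neither passed with DESeq2 (adjusted p = 0.206 and 0.125). *Doc2a*, *Doc2b*, *Unc13a* and *Cadps* each overlap a gene on the opposite strand, and how the counting treated strand is not given in the sources used here.

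**Figure D3:**
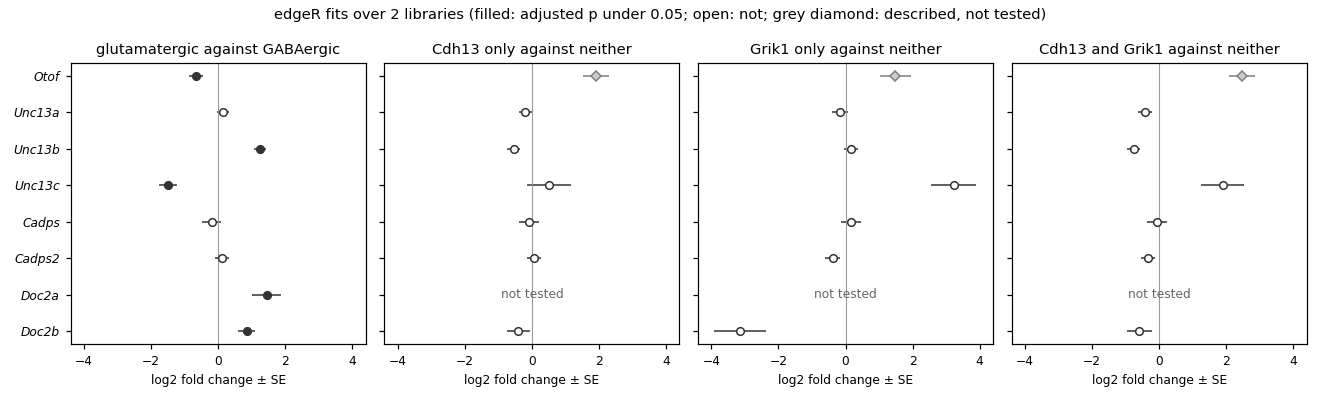
log2 fold change (horizontal axes) with its SE for the 8 genes in the comparison of classes and in the 3 comparisons with glutamatergic nuclei of neither marker, from edgeR fits over 2 libraries without the library as a block. Filled circles passed an adjusted p of 0.05, open circles did not, and the grey diamonds of *Otof* are a description. *Unc13b* is filled at 1.24 and *Unc13c* at -1.50 between the classes, and no circle is filled in the other comparisons, where *Doc2a* was not tested.

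**Figure D4:**
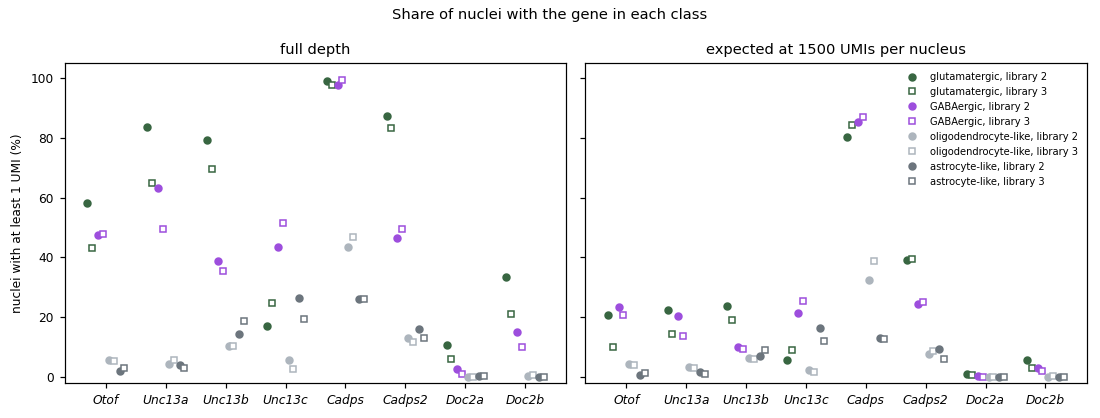
Share of nuclei with at least 1 UMI of each gene (vertical axis, percent) at full depth (left) and calculated for 1500 UMIs per nucleus (right), for glutamatergic, GABAergic, oligodendrocyte-like and astrocyte-like nuclei, with library 2 filled and library 3 open. At full depth 5 genes had a higher share in glutamatergic nuclei in both libraries and 1 in GABAergic nuclei, and at 1500 UMIs, as by CPM, 5 and 3. Glutamatergic nuclei were deeper, and the same counts were not made over all genes, so these counts are a description of the members only.

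Next, the groups of glutamatergic nuclei were compared. Without the library as a block, none of the 6 members tested besides *Otof* passed in any of the 3 comparisons with nuclei of neither marker (edgeR, adjusted p under 0.05). *Doc2a* fell under the filter on low counts. At an unadjusted p under 0.05 there was 1 member for *Cdh13* only, 2 for *Grik1* only and 2 for both markers. DESeq2, also without the block, called 0 (1, 2 and 1 at an unadjusted p under 0.05). Of all 10081 genes tested, 0.744% passed for *Cdh13* only, 0.0794% for *Grik1* only and 1.82% for both markers, so few genes of any kind passed in this fit. With the library as a block, which pairs the groups, 2.83%, 1.55% and 4.64% of genes passed in the same order. The members that passed with the block were 0, 2 and 2.

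*Unc13c* differed widely among the glutamatergic groups. It was at 9.87 and 71.7 CPM in nuclei with neither marker, at 52.9 and 42.3 with *Cdh13* only, at 199.7 and 458 with *Grik1* only and at 139.8 and 111 with both. Both *Grik1* only values exceeded all others, with a log2 difference from neither of 3.23 ± 0.67 (adjusted p = 0.0711, and 1.4e-24 to 1 over 11 alternatives, 6 of them past the threshold). With the library as a block this difference passed (adjusted p = 0.00387), and so did that of nuclei with both markers, 2.16 ± 0.49 (adjusted p = 0.0171, against 0.204 without the block). The *Grik1* only groups hold 25 and 16 nuclei, of which 6 and 9 had at least 1 UMI of *Unc13c* (99 and 89 UMIs in all). Among nuclei with neither marker, 20 and 9 had at least 1 UMI (37 and 68 UMIs in all). These levels thus rest on few nuclei. The summed level of the same precursor markers was 379 and 1301 CPM in *Grik1* only nuclei, with *Cspg4* at 0 in both libraries, and 397 and 665 CPM in nuclei with both markers, against 190 and 262 CPM in nuclei with neither marker and 7569 and 5935 CPM in oligodendrocyte precursor-like nuclei. The part of these markers in the results was not tested.

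*Unc13b* was at 222 and 189 CPM with neither marker, 171 and 119.5 with *Cdh13* only, 224 and 257 with *Grik1* only and 141 and 111 with both. The values with both markers lay below those with neither, by a log2 difference of -0.76 ± 0.20 (adjusted p = 0.0728), which passed with the library block (adjusted p = 0.0133). *Doc2b* had 3 UMIs in the *Grik1* only nuclei of library 2 and 0 in library 3 (up to 15.4 CPM for a count of 3), against 40.3 and 30.6 CPM with neither marker. Its adjusted p was 0.128, and 0.0239 with the block. *Unc13a* (92.6 to 162 CPM) and *Cadps* (1119 to 1697 CPM) had library ranges that overlapped between all 4 groups. *Cadps2* was at 421 and 446 CPM with *Cdh13* only, 398 and 405 with neither marker, 352 and 316 with both and 367 and 267 with *Grik1* only, where only the last pair of groups overlapped. How often groups of 2 libraries lie apart was not counted over all genes, so this says little about *Cadps2*. None of *Unc13a*, *Cadps* and *Cadps2* passed with or without the block.

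Nuclei of each class were then divided by further markers, those with at least 2 UMIs of the marker against those with 0, as a description over the 2 libraries. In every division but that by *Foxp2*, nuclei with the marker had the higher median depth in both libraries. The clearest division was by *Foxp2*, a transcription factor that the study used for intercalated cells. GABAergic nuclei with *Foxp2* (159 and 362 nuclei) had 431 and 288 CPM of *Otof*, and those without it (217 and 275 nuclei) 28.1 and 27.0 CPM, no higher than the oligodendrocyte-like level. *Otof* was thus seen in 92.5% and 79.3% of *Foxp2* nuclei against 13.8% and 12% of the rest, at like median depths (7737 and 7038 against 7623 and 7599 UMIs). *Unc13c* divided the same way, 352 and 361 CPM against 82.8 and 97.1, and so did *Doc2b*, 31.4 and 17.4 against 11.8 and 8.06 CPM. *Unc13b* was lower with *Foxp2*, 51.8 and 55.9 against 88.2 and 87.4 CPM. In GABAergic nuclei without *Foxp2*, *Otof* lay below its glutamatergic level (147 and 80.4 CPM) in both libraries. *Unc13c* in these nuclei was above its glutamatergic level (57.8 and 94.5 CPM), narrowly so in library 3. The higher class levels of *Otof* and *Unc13c* thus do not describe GABAergic nuclei in general.

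*Cadps2* followed other lines of division. GABAergic nuclei with *Reln*, the gene for reelin (59 and 100 nuclei), had 847 and 833 CPM of *Cadps2* against 223 and 248 CPM in nuclei without. Nuclei with *Sst*, the gene for somatostatin (26 and 42 nuclei), had 79.9 and 73.5 CPM against 398 and 436. Nuclei with *Rarb*, a retinoic acid receptor that the study linked to the amygdalostriatal area (88 and 205 nuclei), had 147 and 179.8 CPM against 485 and 558. In the same divisions *Otof* was lower with *Reln* (24.0 and 42.9 against 239.7 and 200.6 CPM) and *Sst* (67.6 and 25.3 against 215 and 183 CPM) and higher with *Rarb* (276 and 206 against 171 and 134 CPM). It was also lower with *Calb1* (64.0 and 49.6 against 278 and 212 CPM), the gene for calbindin. The nuclei without *Reln*, *Sst* or *Calb1* included nuclei with *Foxp2*, so these divisions are not separate from that by *Foxp2*. GABAergic nuclei without *Foxp2* had 28.1 and 27.0 CPM of *Otof*. Against these values, nuclei with *Calb1* were higher in both libraries. Nuclei with *Reln* were lower in library 2 and higher in library 3, and nuclei with *Sst* the reverse. *Cadps* stayed between 1300.4 and 1645 CPM on either side of every GABAergic division.

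**Figure D5:**
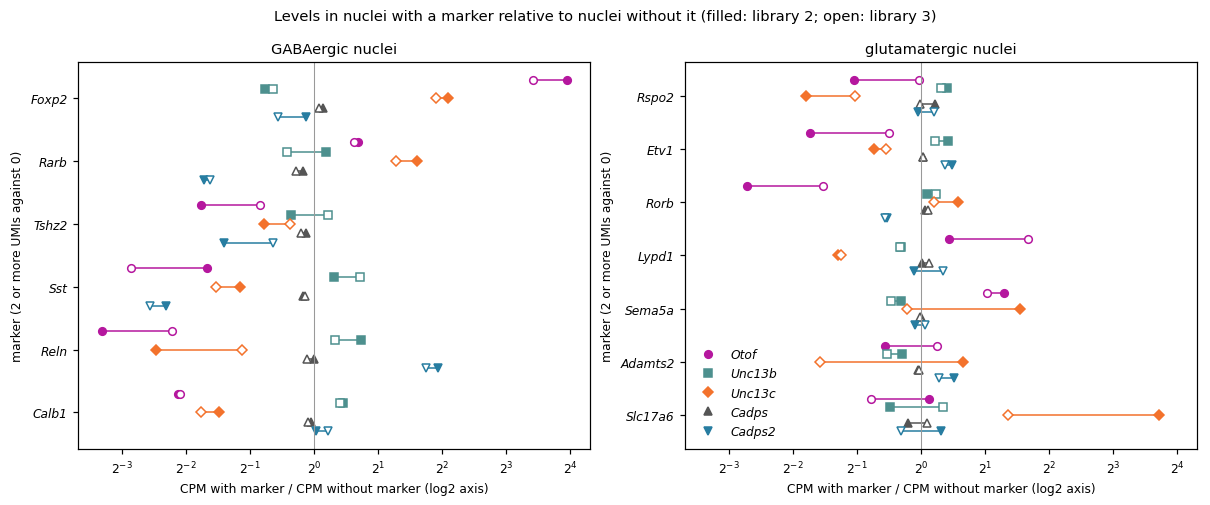
Ratio of CPM in nuclei with a marker to CPM in nuclei without it (horizontal axes, log2 scale) for 5 genes in GABAergic (left) and glutamatergic nuclei (right), with library 2 filled and library 3 open. *Otof* reaches ratios of 15.3 and 10.7 with *Foxp2*, *Cadps2* 3.81 and 3.36 with *Reln*, and *Cadps* stays between 0.817 and 1.16.

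In glutamatergic nuclei, *Otof* was lowest with *Rorb*, a nuclear receptor gene (52 and 30 nuclei), at 25.8 and 31.8 CPM against 169.8 and 92.1 CPM without. It was higher with *Sema5a*, 245 and 114 against 99.8 and 56.1 CPM, and with *Lypd1*, 158 and 98.9 against 118 and 31.2 CPM. The study had selected *Rorb*, *Sema5a* and *Lypd1* as well as *Otof* as cluster markers, so these differences are not independent of that choice. Nuclei with *Lypd1* were deeper (medians of 18169 and 16167 against 10462 and 9479 UMIs), and the library 3 value without it rests on 18 UMIs of *Otof*. *Unc13c* was higher in nuclei with *Slc17a6*, the transporter of subcortical glutamatergic neurons (56 and 34 nuclei), at 258 and 149 CPM against 19.8 and 58.5 CPM in nuclei without. In library 3 the nuclei without *Slc17a6* still held more of its UMIs (116 against 86). *Unc13a* and *Unc13b* were both lower with *Otof* itself, *Unc13b* at 176 and 102 against 207 and 177 CPM, and *Unc13a* at 146 and 96.0 against 164 and 119 CPM.

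Over the 10 sums of neuronal groups and libraries, the genes whose log2 CPM profile was most like that of *Otof* among 9158 genes were *Ano6* (Pearson r = 0.94), *Cplx2* (0.93), *Ttc3* (0.93), *N4bp2* (0.93) and *Ptprz1* (0.93). The sums share libraries and, between genes, depth, so these values are a description. *Cplx2*, the gene for complexin 2, which binds the SNARE complex, was at 15.2 and 17.9 CPM in nuclei with neither marker, 69.7 and 48.2 with *Cdh13* only, 64.5 and 30.9 with *Grik1* only, 89.4 and 42.4 with both, and 58.3 and 47.5 in GABAergic nuclei.

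Other genes of the release machinery were counted in lists by function (edgeR, adjusted p under 0.05). Between the classes, the median log2 difference over all genes was -0.02, and 16.4% of all genes tested passed, a share that the SNARE list did not reach and the other lists exceeded. Of 19 SNARE genes and regulators tested, 1 was higher in glutamatergic nuclei (*Stx1a*, syntaxin 1A, 1.65 ± 0.21) and 1 lower (*Cplx1*, complexin 1, -0.85 ± 0.21), with a list median of 0.09. Of 14 synaptotagmins, a family in which only some members are calcium sensors of release, 3 were higher, *Syt17* (2.31 ± 0.19), *Syt7* (0.80 ± 0.16) and *Syt9* (0.71 ± 0.21), and 3 lower, *Syt6* (-6.56 ± 0.36), *Syt2* (-2.69 ± 0.49) and *Syt10* (-1.14 ± 0.26), with a median of 0.07. Of 18 active zone and Rab3 genes, 4 were higher, among them *Rab3d* (1.93 ± 0.45), *Bsn* (bassoon, 0.93 ± 0.18) and *Rimbp2* (0.69 ± 0.20), and 6 lower, among them *Rab3b* (-3.45 ± 0.34), *Rims3* (-1.82 ± 0.23) and *Ppfia4* (-1.78 ± 0.25), with a median of -0.21. Of 12 dense core vesicle genes, 3 were higher, *Pcsk2* (1.29 ± 0.23), *Cpe* (1.19 ± 0.21) and *Pcsk1* (0.86 ± 0.19), and 3 lower, *Scg2* (secretogranin II, -1.97 ± 0.30), *Pam* (-1.19 ± 0.20) and *Vgf* (-0.82 ± 0.21), with a median of 0.19. Among 5 relatives of the members that were tested, *Dysf* (dysferlin, 2.00 ± 0.28) was higher, and *Myof* (myoferlin, -3.07 ± 0.48) and *Rph3a* (rabphilin, -0.75 ± 0.22) were lower, with a list median of -0.75.

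Between the glutamatergic groups, 0.744% of all genes passed with *Cdh13* only, 0.0794% with *Grik1* only and 1.82% with both markers. With both markers each of the 5 lists had a higher share than that. In lists of 3 to 19 genes tested, 1 call is enough for this, so the shares say little about the lists. With *Cdh13* only, 1 of 19 SNARE genes and regulators (*Cplx2*, 1.88 ± 0.29) and 1 of 13 synaptotagmins (*Syt10*, 3.38 ± 0.47) were higher than with neither marker, 0 genes of the other lists passed in either direction, and no list gene passed with *Grik1* only. With both markers, *Cplx2* (2.04 ± 0.30), *Syt10* (3.18 ± 0.52), *Baiap3* (a Munc13 relative of dense core vesicle traffic, 2.71 ± 0.54) and *Rims3* (1.78 ± 0.37) were higher, and *Stx1a* (-1.20 ± 0.25), *Rph3a* (-1.56 ± 0.37), *Rimbp2* (-0.97 ± 0.21) and *Pcsk1* (-1.51 ± 0.30) were lower.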

How the data were processed

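Nuclei of mouse BLA were measured by snRNAseq with 10x Genomics chemistry. The authors aligned reads with Cell Ranger 7.0.1 to the 10x mouse reference (mm10). The files deposited by the authors hold UMI counts, not normalized, of every gene in every barcode of a library. Whether intronic reads were counted is not given in the sources used here. The members, gene lists and group rules were chosen with earlier results of these data known. The named genes were all 8 members, up to 3 genes that passed in each direction per list and comparison, and the 5 genes most like *Otof* by Pearson r of log2(CPM + 1), among genes over 10 CPM in at least 2 sums.

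Barcodes were assigned to classes by UMIs of transmitter genes. Non-neuronal groups had 0 such UMIs and the highest sum of 5 marker lists in their own list. They needed at least 3 UMIs from at least 2 of its genes, with *Slc1a2* and *Slc1a3* under 0.1% of UMIs, or, for astrocyte-like nuclei, at least 1 UMI and at least 0.5%. No doublet caller was run: the class rules remove barcodes with genes of both classes, and an alternative leaves out barcodes above the 95th percentile of UMIs. Counts were summed per group and library and tested with edgeR 4.0.16 in R 4.3.3 (TMM, filterByExpr, quasi-likelihood test, Benjamini-Hochberg adjustment over all genes tested, threshold 0.05), with DESeq2 1.42.0 as an alternative. The SE printed with an edgeR log2 difference is its absolute value divided by the square root of its F statistic. The 8 genes that built the groups were left out of the counts of calls. The fits were run on simulated counts with the same spread for every gene and no shared library effect, so that run does not cover these features of the data. The glutamatergic and GABAergic sums of a library come from the same nuclei preparation, so the library pairs them. The deviations of the groups from their means correlated between 0.102 and 0.249 over 10 pairs of groups. Shares at 1500 UMIs were calculated from the hypergeometric distribution, and shallower nuclei were left out (6 and 4 glutamatergic, 7 and 3 GABAergic). Coordinates follow GENCODE vM21 on GRCm38. Python 3.11.15, numpy 2.4.6, scipy 1.17.1 and pandas 2.3.3 were used.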

Additional observations from a re-analysis of the deposited data

Results flagged for a closer look

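Library 1 was left out of the reported comparisons and entered only the alternative that adds it, and all 8 genes were detected in it well above the 3 counts that a count of 0 allows (0.371 CPM). Over all of its barcodes the levels were 300.6 CPM for *Otof*, 288 CPM for *Unc13a*, 143 CPM for *Unc13b*, 98.9 CPM for *Unc13c*, 740.0 CPM for *Cadps*, 209 CPM for *Cadps2*, 52.1 CPM for *Doc2a* and 30.8 CPM for *Doc2b*. *Otof*, *Unc13a* and *Doc2a* were higher than over all barcodes of libraries 2 and 3 (167 and 118 CPM, 136 and 88.5 CPM, and 4.56 and 2.66 CPM), and *Cadps*, *Cadps2* and *Unc13c* were lower (1105 and 1159, 352 and 335, and 139.6 and 185 CPM). *Otof* was found in 82.7% of its 819 barcodes. What sets library 1 apart was not tested.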

How the results depend on the processing

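The direction of all 8 class differences was kept in each of the 9 alternatives with a test, except for *Unc13a*, which turned to -0.0088 with at least 3 transmitter UMIs. The number of members past the threshold between the classes was 5 in the reported fit. It was 4 with another scaling in edgeR and 4 without the barcodes of the highest UMIs, where 15.8% and 15.6% of all genes passed. It was 2 with DESeq2 (11.4% of all genes), 2 with no limit on *Slc1a2* and *Slc1a3* (13.7%) and 3 with at least 3 transmitter UMIs (14.3%). It was 0 with library 1 added (0.00851%), a setting with 7 GABAergic nuclei in that library. Genes called over all ranged from 1 (library 1 added) to 3210 (replicate block). With the library as a block, which pairs the groups, 2 members passed for *Grik1* only (*Unc13c* and *Doc2b*) and 2 for both markers (*Unc13b* and *Unc13c*), against 0, and no other call of a member changed. Genes called went from 75 to 285, from 8 to 156 and from 183 to 468 in the 3 comparisons of glutamatergic groups.

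Against 0 members in the reported fit, 1 passed for *Cdh13* only with at least 3 transmitter UMIs. For *Grik1* only 2 passed with no filter on low counts, and 1 each with at least 3 transmitter UMIs, without the barcodes of the highest UMIs, with the division by share of UMIs and in nuclei of 6000 to 20000 UMIs. For both markers 1 passed with no filter, 1 with at least 3 transmitter UMIs and 1 with the division by share. With library 1 added 0 genes passed in the 3 comparisons. In further settings the number of genes called differed from the reported one by a factor above 1.5. It rose for *Grik1* only to 67 with DESeq2, 25 with at least 3 transmitter UMIs and 57 with the highest UMIs left out. It also rose there to 61 with the share division and 57 in nuclei of 6000 to 20000 UMIs. With no filter it rose to 310, 259 and 485 for the 3 comparisons. It fell to 31 (*Cdh13* only) and 119 (both) with no limit on *Slc1a2* and *Slc1a3*, and to 43 (*Cdh13* only) in nuclei of 6000 to 20000 UMIs.

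Some log2 differences changed sign. For *Cdh13* only, *Unc13a* turned to 0.0087 with library 1 added, *Cadps2* to -0.064 with the division by share, and *Unc13c* to -0.19 with no astrocyte limit and -0.21 in nuclei of 6000 to 20000 UMIs. For *Grik1* only, *Unc13a* turned to 8.0e-05 with the division by share, *Unc13b* to -0.0055 with library 1 added, -0.080 without the highest UMIs and -0.14 with the division by share, and *Cadps* to -0.074 with library 1 added. Leaving out a library gives values with no test. *Unc13c* with *Cdh13* only was 2.29 in library 2 alone and -0.77 in library 3 alone, *Cadps* with *Cdh13* only -0.22 and 0.025, *Unc13b* with *Grik1* only -0.040 and 0.45, *Cadps* with *Grik1* only -0.13 and 0.42, and *Cadps* with both markers -0.20 and 0.064. The causes were not tested. *Doc2a* is limited by its counts (9 to 58 UMIs per class and library), and the *Grik1* only groups by their 25 and 16 nuclei.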
